A study of Mus musculus with 16 samples.

Results

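The amino acid transporter genes described here are 34 of the 21640 genes counted in whole mouse thyroid. They were picked by symbol, as the protein-coding members of the solute carrier families SLC1, SLC3, SLC7, SLC36, SLC38 and SLC43. No measured value enters that rule, but earlier results of these data were known when the families were chosen. They comprise 2 heavy chains, 6 light chains, 5 cationic carriers, 3 SLC43 carriers, 3 system A, 2 system N and 5 other SLC38 carriers, 3 acidic and 2 neutral SLC1 carriers, and 3 proton-coupled SLC36 carriers. Another 8 genes of these families (Slc1a6, Slc1a7, Slc7a9, Slc7a12, Slc7a13, Slc7a15, Slc36a3 and Slc38a8) are not among the counted genes and were not analysed here.

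All mice were wild-type C57Bl/6J animals that began their diet at 8 weeks of age. They were male by the account in the methods. The control diet (CD) was chow. The overnutrition diet (HF+SD) was a high-fat food with sucrose in the drinking water, and thyroids were taken after 3 or 6 weeks of either diet. The comparison asks how overnutrition alters gene expression in the gland. Each of the 4 groups held 4 mice with 1 poly(A) RNA library per mouse, and library totals ran from 30025256 to 48508653 counts. At 6 weeks the mice were M22, M43, M45 and M48 (CD) and M5, M18, M34 and M35 (HF+SD), and at 3 weeks M53, M54, M55 and M96 (CD) and M7, M19y, M20y and M31 (HF+SD). Values by mouse are given in this order. A figure legend of the study gives fewer CD mice for its 6-week RNA-seq than the libraries used here, and which mouse it leaves out is not stated in the sources used here. Leaving out each 6-week CD mouse in turn gave 7 to 12 transporters passing, against 9 with all of them. Library names begin with a different number at each time point, and the labels do not say what that number stands for. Diets were therefore compared within a time point, and levels were not tested between time points.

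Values are given as CPM, counts per 1000000 counts of the library, with library sizes corrected by TMM (trimmed mean of M-values) factors. A gene passed when edgeR's quasi-likelihood test, with Benjamini-Hochberg adjustment over all genes tested, gave an adjusted p under 0.05, and a positive log2 fold change means higher in HF+SD mice. Markers of thyrocytes, the hormone-producing cells, were well expressed in every library. Their sum took 27.2% to 30.6% of the counts at 3 weeks and 4.84% to 14.6% at 6 weeks. Skeletal muscle markers took 3.17%, 13.3% and 9.64% of the counts of the 6-week CD mice M43, M45 and M48, against 0.0825% in M22, 0.102% to 0.370% in the 6-week HF+SD mice and at most 0.00586% at 3 weeks. The 15 muscle markers were all detected in at least 1 library, and 1 of them at 6 weeks and 5 at 3 weeks were at 0 in some library. Markers of C cells, the calcitonin-producing cells of the gland, summed to 5604 to 10162 CPM in CD mice and 3833 to 4142 CPM in HF+SD mice at 6 weeks, where 2 of 3 fell, and to 3161 to 5052 and 2565 to 2871 CPM at 3 weeks, where 3 of 3 fell. Adipocyte markers summed to 451 to 1043 and 243 to 403 CPM at 6 weeks, where 5 of 6 fell, and to 517 to 658 and 187 to 407 CPM at 3 weeks, where 4 of 6 fell. None of these 9 markers was at 0 in any library. Parathyroid markers summed to 14746 CPM in M22, 2179 to 4345 CPM in the other 6-week CD mice and 460 to 1966 CPM in the 6-week HF+SD mice. At 3 weeks they summed to 36.4 to 2968 CPM in CD mice and 26.8 to 1108 CPM in HF+SD mice. None of the 3 parathyroid markers passed at either time. M22 thus differed from the other CD mice in more than muscle RNA, which limits each fit with M22 as the only CD mouse.

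Amino acids cross the plasma membrane through carriers that differ in substrate and driving force. Light chains of SLC7 exchange one amino acid for another and reach the cell surface only when bound to a heavy chain of SLC3, whereas cationic SLC7 carriers work without one. System A and system N carriers of SLC38 take up small neutral amino acids and glutamine with sodium, SLC1 carriers take up glutamate or neutral amino acids, SLC36 carriers move small amino acids with protons, and SLC43 carriers let large neutral amino acids through without an ion gradient. In the thyroid these proteins supply residues for thyroglobulin, the large protein on whose tyrosines thyroid hormone is built.

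Of the 34 genes, 32 had enough counts to be tested at each time point. The remaining pair were Slc7a11, the cystine and glutamate exchanger, with 1 to 38 counts per library over both time points, and Slc1a2, a glutamate carrier, with 0 to 17. At 3 weeks 10 of the 32 passed, 5 higher and 5 lower in HF+SD mice, where 14.9% of all genes tested passed (9.07% higher and 5.78% lower). At 6 weeks 9 of the 32 passed, 5 higher and 4 lower, where 21.5% of all genes passed (12.0% higher and 9.55% lower). As shares, 31.3% of the transporters passed at 3 weeks and 28.1% at 6 weeks. With an absolute log2 fold change above 1 as well, 5 passed at 3 weeks (background 4.66%) and 8 at 6 weeks (background 12.6%). The median log2 fold change of the transporters was -0.34 at 3 weeks and 0.13 at 6 weeks, beside -0.0083 and -0.011 for all genes.

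A set of 6 transporters passed at both time points and moved the same way each time. Slc7a7, Slc43a2, Slc38a3 and Slc38a1 were higher in HF+SD mice, and Slc36a2 and Slc43a1 were lower. Slc1a3, Slc1a5, Slc38a2 and Slc7a4 passed at 3 weeks but not at 6, and Slc7a2, Slc43a3 and Slc38a4 passed at 6 weeks but not at 3. The CPM of the diet groups did not overlap for 12 of the 32 transporters at 3 weeks (background 23.6%) and for 8 at 6 weeks (background 23.8%). Without overlap, an exact two-sided permutation test of 4 against 4 mice gives its smallest possible p, 0.0286, so that p adds nothing to these counts. Adjusted over the 32 transporters by Benjamini-Hochberg, it was 0.0762 at 3 weeks and 0.114 at 6 weeks, so no transporter passed by that test. The number passing depended on single mice, falling to 5 at 6 weeks without HF+SD mouse M18, M34 or M35 and to 6 at 3 weeks without HF+SD mouse M19y, M20y or M31. Scaling to thyrocyte genes, after which the median of all genes was -0.49 at 6 weeks, changed the 6-week split to 3 higher and 8 lower and the 3-week split to 4 higher and 2 lower.

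**Figure D1:**
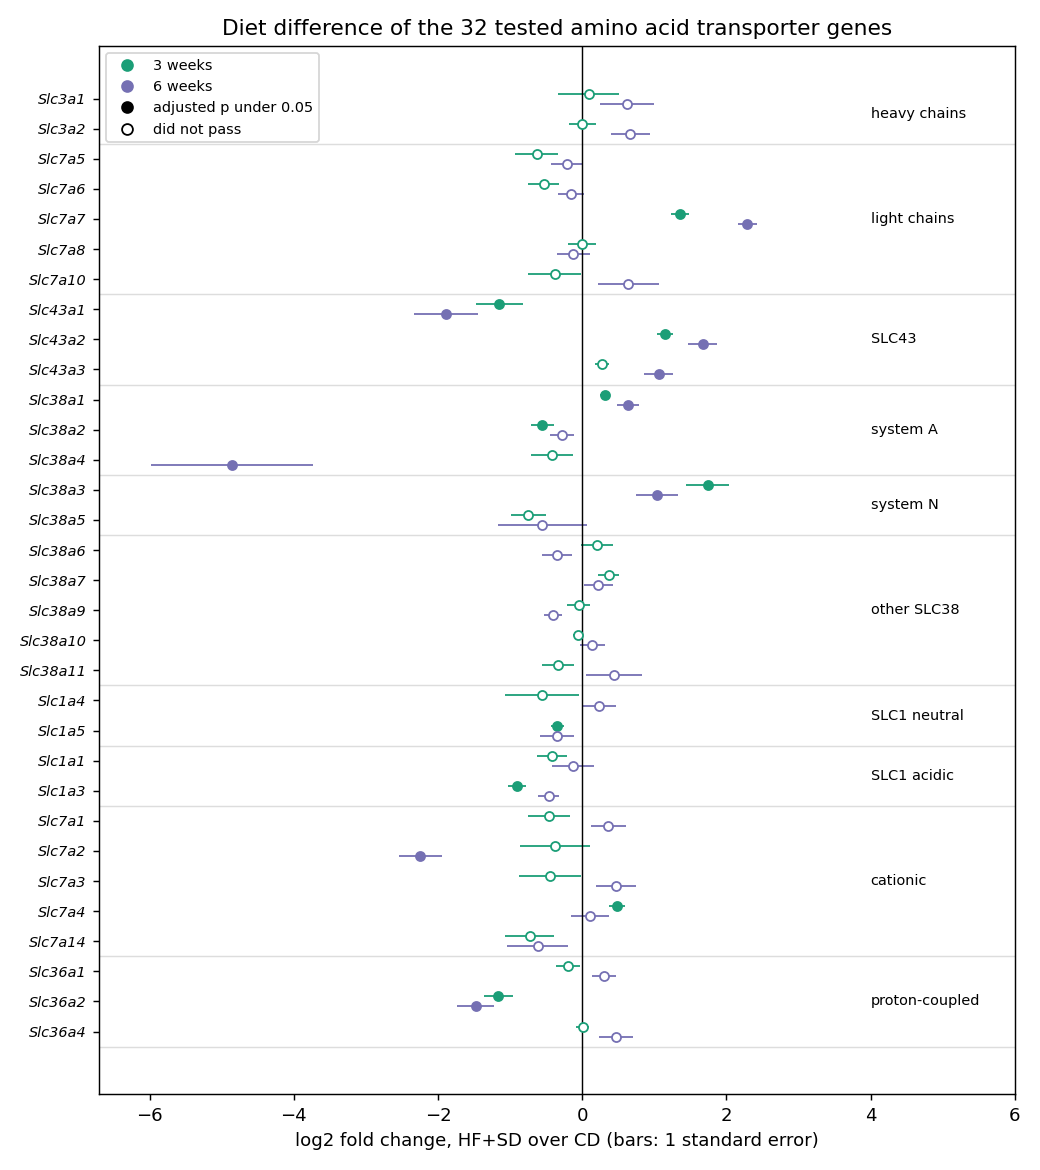
Log2 fold change of HF+SD over CD (horizontal axis) for the 32 tested transporters, grouped by family (rows), at 3 weeks (green) and 6 weeks (purple), with bars of 1 standard error and filled points for an adjusted p under 0.05. Slc7a7 and Slc43a2 lie to the right at both times, Slc36a2 and Slc43a1 lie to the left, and the widest bar is that of Slc38a4 at 6 weeks (log2 fold change -4.86).

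The heavy chains did not pass at either time point. Slc3a2 encodes the heavy chain CD98hc, which partners most light chains. At 3 weeks it stood at 106, 99.5, 136 and 104 CPM in the CD mice M53, M54, M55 and M96 and at 78.3, 151, 99.0 and 118 CPM in the HF+SD mice M7, M19y, M20y and M31. The diets overlapped fully and the group means were both 111 CPM (log2 fold change 0.0018, standard error 0.19, adjusted p = 0.997). At 6 weeks Slc3a2 stood at 101, 49.9, 44.9 and 60.4 CPM in the CD mice and at 76.0, 98.6, 127 and 106 CPM in the HF+SD mice. M22, the CD mouse with little muscle RNA, lay among the HF+SD mice, and the other CD mice lay below all of them. The log2 fold change of 0.67 (standard error 0.27) did not pass (adjusted p = 0.102), and its size turned on M22. Without M22 it was 0.98 (adjusted p = 0.00531), and with M22 as the only CD mouse it was 0.0079 (adjusted p = 0.989). It was 0.22 (adjusted p = 0.550) in a fit with a muscle covariate and 0.30 (adjusted p = 0.324) when libraries were scaled to thyrocyte genes. Slc3a1, the heavy chain rBAT of kidney and gut, was near the limit of detection, with means of 0.304 and 0.327 CPM at 3 weeks and 0.413 and 0.630 CPM at 6 weeks on CD and HF+SD (adjusted p = 0.906 and 0.265). In single mice it ran from 0.128 to 0.538 CPM at 3 weeks and from 0.228 to 0.902 CPM at 6 weeks, with overlapping diets each time.

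Slc7a7 had the lowest adjusted p of any transporter at both time points. It encodes y+LAT1, a light chain of CD98hc that releases cationic amino acids such as arginine and lysine in exchange for neutral ones and sodium. At 3 weeks Slc7a7 was at 7.25, 7.56, 6.27 and 5.44 CPM in the CD mice and at 15.7, 16.4, 17.6 and 18.4 CPM in the HF+SD mice. The lowest HF+SD mouse had more than the highest CD mouse by a wide margin, and the difference was 1.36 on the log2 scale (standard error 0.12, adjusted p = 0.000274), or 2.57-fold. At 6 weeks the values were 6.23, 5.80, 5.23 and 6.31 CPM in the CD mice and 29.2, 26.1, 28.1 and 31.8 CPM in the HF+SD mice. The CD mice were again close together, M22 included, and the diets differed by 2.29 on the log2 scale (standard error 0.13, adjusted p = 0.000103), or 4.89-fold. Because the tissue was sequenced in bulk, a change in the number of cells of a type and a change in RNA per cell cannot be told apart here or in the results that follow. Slc7a7 is also active in macrophages. The summed CPM of 7 leukocyte markers was 82.0 to 91.8 in CD mice and 130 to 156 in HF+SD mice at 6 weeks, where 3 of the 6 tested markers rose, and it overlapped at 3 weeks, with 71.4 to 91.1 in CD mice and 73.9 to 112 in HF+SD mice and no marker passing. Endothelial markers, 5 of 5 of which rose at both times, summed to 360 to 468 CPM in CD mice and 656 to 958 in HF+SD mice at 3 weeks and to 250 to 325 and 926 to 1023 at 6 weeks. The part of these cells in the rise of Slc7a7 was not tested.

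RefSeq lists 5 transcription starts for Slc7a7 in the build GRCm38.p6. The first is shown with 250 bases before it and 10 after, beside the first listed start of Slc43a2, the transporter with the next lowest adjusted p at both times, and the only listed start of Slc1a4, a neutral carrier that stood out in 1 CD mouse. Capitals mark matches, on either strand, to TGATGNAA, the core of the element read by ATF4 and C/EBP proteins in the amino acid response, and to TGACG, contained in the cyclic AMP response element TGACGTCA through which thyrotropin signalling can act. The windows are chr14:54417935-54418194 on the minus strand for Slc7a7, chr11:75531444-75531703 on the plus strand for Slc43a2 and chr11:20332704-20332963 on the minus strand for Slc1a4, each 260 bases long.
Slc7a7: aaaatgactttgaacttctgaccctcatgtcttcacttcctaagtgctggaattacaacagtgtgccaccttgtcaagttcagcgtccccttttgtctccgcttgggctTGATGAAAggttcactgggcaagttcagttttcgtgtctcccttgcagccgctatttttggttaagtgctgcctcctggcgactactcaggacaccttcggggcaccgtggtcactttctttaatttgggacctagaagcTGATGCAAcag
Slc43a2: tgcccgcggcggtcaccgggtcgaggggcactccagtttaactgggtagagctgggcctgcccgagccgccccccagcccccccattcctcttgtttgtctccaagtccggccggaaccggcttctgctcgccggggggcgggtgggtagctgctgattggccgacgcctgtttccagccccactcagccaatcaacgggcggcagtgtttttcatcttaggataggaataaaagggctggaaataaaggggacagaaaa
Slc1a4: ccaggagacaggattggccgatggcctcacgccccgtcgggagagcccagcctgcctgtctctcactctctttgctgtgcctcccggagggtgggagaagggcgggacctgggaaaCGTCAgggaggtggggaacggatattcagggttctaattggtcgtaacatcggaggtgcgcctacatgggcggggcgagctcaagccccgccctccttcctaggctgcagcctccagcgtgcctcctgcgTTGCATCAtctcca
The Slc7a7 window held TGATGNAA at -141 and at -1 relative to the start, the Slc43a2 window held none of the letters searched, and the Slc1a4 window held TGATGNAA at -4 and TGACG at -134. Over windows of 300 bases (250 before and 50 after a start), which RefSeq gave for 25 of the 34 transporters with 34 starts in all, TGATGNAA was found in 11.8% (4 windows, belonging to Slc7a7, Slc7a11 and Slc1a4) and in 3.97% of all 32851 windows. TGACG was found in 29.4% of the transporter windows and 20.8% of all windows, and TGACGTCA, which contains TGACG, in 1 transporter window (Slc38a6) and 1.79% of all. Overlapping windows of 1 gene share sequence, so these shares do not count independent sites.

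The other tested light chains did not pass at either time point. Slc7a5 encodes LAT1, the exchanger for large neutral amino acids including tyrosine and leucine. After 3 weeks it was at 4.55, 3.10, 8.64 and 3.93 CPM in the CD mice and at 3.68, 3.02, 2.77 and 3.57 CPM in the HF+SD mice, with M55 alone far above the rest (log2 fold change -0.63, adjusted p = 0.174). The 6-week values were 1.66, 1.62, 1.20 and 1.48 CPM in CD mice and 1.71, 1.03, 1.13 and 1.26 CPM in HF+SD mice (log2 fold change -0.21, adjusted p = 0.534). Slc7a8 encodes LAT2, which also carries thyroid hormones. It was at 4.53, 3.16, 4.63 and 4.33 CPM in CD mice and at 4.12, 3.02, 5.07 and 4.40 CPM in HF+SD mice at 3 weeks (log2 fold change -0.0051, adjusted p = 0.991). At 6 weeks Slc7a8 was at 4.22, 2.69, 4.00 and 3.47 CPM in CD mice and at 4.35, 3.04, 2.41 and 3.36 CPM in HF+SD mice (log2 fold change -0.12, adjusted p = 0.735). For both genes the diets overlapped at each time. Slc7a6 (y+LAT2), whose protein works like y+LAT1, had log2 fold changes of -0.53 at 3 weeks and -0.15 at 6 weeks (adjusted p = 0.124 and 0.570), and Slc7a10, a carrier of small neutral amino acids, had -0.38 and 0.64 (adjusted p = 0.520 and 0.301). Slc7a11 was at 0.248, 0.113, 0.617 and 0.213 CPM in CD mice and 1.02, 0.0256, 0.181 and 0.106 in HF+SD mice at 3 weeks, and at 0.0574, 0.228, 0.130 and 0.171 in CD mice and 0.316, 0.0627, 0.204 and 0.134 in HF+SD mice at 6 weeks. These are few counts with overlapping diets, and no fold within a time point is given. In the edgeR fit of all 16 libraries, its log2 fold change was larger by 0.098 at 6 weeks than at 3 (standard error 1.15, adjusted p = 0.971).

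Per kilobase of exon union, which allows levels to be compared between genes, Slc7a7 was the second light chain by mean share in CD mice, after Slc7a6, and the first in HF+SD mice. Its share of the summed light chain level was 22.5% ± 6.26 in CD mice and 49.1% ± 3.51 in HF+SD mice at 3 weeks (SD, n = 4 each), and 21.3% ± 0.761 and 57.7% ± 4.54 at 6 weeks. Slc7a6 held the largest share in CD mice, 41.9% ± 5.02 at 3 weeks and 55.8% ± 5.70 at 6 weeks, and 26.3% ± 2.84 and 27.4% ± 4.55 in HF+SD mice. The ranges of the 2 diets did not overlap for either gene at either time, and since shares sum to 100% they are not independent. Slc7a5 made up 14.2% ± 3.47 in CD mice and 8.41% ± 1.18 in HF+SD mice at 3 weeks, and 4.82% ± 0.605 and 2.28% ± 0.318 at 6 weeks. The summed light chain level per unit of Slc3a2 overlapped between the diets at both times, with 0.254 to 0.337 in CD mice and 0.226 to 0.479 in HF+SD mice at 3 weeks, and 0.295 to 0.607 and 0.381 to 0.787 at 6 weeks. Per unit of Slc3a2, Slc7a7 was at 0.0490 to 0.0809 in CD mice and 0.116 to 0.214 in HF+SD mice at 3 weeks, and at 0.0657 to 0.124 and 0.236 to 0.409 at 6 weeks.

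**Figure D2:**
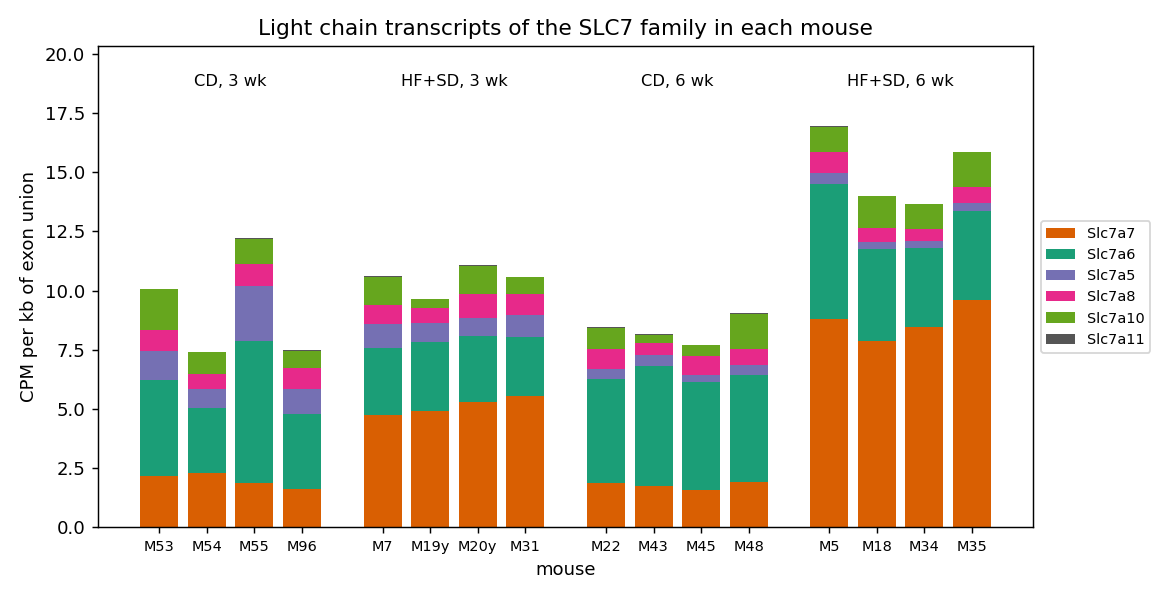
CPM per kilobase of exon union (vertical axis) of the 6 SLC7 light chains, stacked for each of the 16 mice (horizontal axis). The Slc7a7 segment at the base is taller in each HF+SD mouse than in any CD mouse of its time point, with a mean share of 57.7% in HF+SD mice and 21.3% in CD mice at 6 weeks.

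All 3 SLC43 genes passed at 6 weeks, in opposite directions. Slc43a2 encodes LAT4, which passes leucine, isoleucine, phenylalanine and methionine down their gradient. At 3 weeks it was at 403, 405, 436 and 317 CPM in the CD mice and at 901, 798, 820 and 939 CPM in the HF+SD mice, so that each HF+SD mouse exceeded each CD mouse (log2 fold change 1.15, standard error 0.11, adjusted p = 0.00038). After 6 weeks it was at 140, 115, 127 and 192 CPM in CD mice and at 384, 458, 435 and 555 CPM in HF+SD mice (log2 fold change 1.67, standard error 0.20, adjusted p = 0.000875). The order of the diets was the same, with the CD mouse with little muscle RNA, M22, among the other CD mice. Per kilobase Slc43a2 had the highest level of the 34 transporters in HF+SD mice at both times, and was at rank 2 at 3 weeks and rank 7 at 6 weeks in CD mice. Slc43a3, whose protein is known as a carrier of purine nucleobases, was at 65.6, 53.3, 67.8 and 68.1 CPM in CD mice and 71.9, 70.6, 81.4 and 85.0 CPM in HF+SD mice at 3 weeks, where the diets did not overlap but the gene did not pass (log2 fold change 0.28, adjusted p = 0.0932). At 6 weeks the values were 90.3, 72.1, 51.2 and 54.2 CPM in CD mice and 153, 154, 122 and 130 CPM in HF+SD mice. All HF+SD mice were higher, M22 was the highest CD mouse, and the diets differed by 1.06 on the log2 scale (standard error 0.20, adjusted p = 0.00698). With M22 as the only CD mouse the difference was 0.62 and did not pass (adjusted p = 0.124), and scaled to thyrocyte genes it was 0.62 and passed (adjusted p = 0.0473). The endothelial marker sums given for Slc7a7 move with Slc43a2 and Slc43a3 as well, and their part in these results was not tested.

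Slc43a1, which encodes LAT3, a second carrier of large neutral amino acids, fell at both times. It was at 2.77, 1.27, 2.49 and 1.66 CPM in CD mice and 1.24, 0.768, 1.14 and 0.571 CPM in HF+SD mice at 3 weeks. The highest HF+SD mouse and the lowest CD mouse were nearly equal, and the log2 fold change of -1.15 (standard error 0.33) passed narrowly (adjusted p = 0.0415), a call kept only when M54 or M7 was the mouse left out (adjusted p otherwise up to 0.108). The 6-week values were 2.18, 3.54, 9.36 and 8.70 CPM in CD mice and 1.85, 1.76, 1.31 and 1.48 CPM in HF+SD mice (log2 fold change -1.89, standard error 0.45, adjusted p = 0.0180). Its order among the CD mice was that of their muscle marker shares, and M22 lay just above the HF+SD mice. With M22 as the only CD mouse the log2 fold change was -0.45 (adjusted p = 0.465), and in a fit with a muscle covariate it was -0.72 (adjusted p = 0.152).

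The system A carriers, which take up alanine, serine and glutamine with sodium, did not move together. Slc38a1 (SNAT1) was at 69.1, 70.7, 70.4 and 66.3 CPM in CD mice and 81.8, 91.7, 83.0 and 87.3 CPM in HF+SD mice at 3 weeks. The 4 CD mice lay within a few CPM of each other and below all HF+SD mice, a small rise of 0.31 on the log2 scale (standard error 0.067, adjusted p = 0.0134). That call was lost when libraries were scaled to thyrocyte genes (adjusted p = 0.134) and in 1 fit of 16 libraries (adjusted p = 0.114). After 6 weeks it was at 41.2, 32.8, 26.4 and 30.6 CPM in CD mice and 45.6, 48.3, 56.2 and 52.7 CPM in HF+SD mice, again without overlap (log2 fold change 0.63, standard error 0.15, adjusted p = 0.0200). The 6-week rise was 0.19 (adjusted p = 0.466) when libraries were scaled to thyrocyte genes, 0.38 (adjusted p = 0.127) in a fit with a muscle covariate and 0.29 (adjusted p = 0.377) with M22 as the only CD mouse, and the call was also lost without M48, M18, M34 or M35 (adjusted p 0.0521 to 0.0632).

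Slc38a2 (SNAT2), the system A carrier that cells induce when amino acids are scarce, fell slightly at 3 weeks. It was at 177, 188, 251 and 170 CPM in CD mice and 166, 105, 141 and 126 CPM in HF+SD mice (log2 fold change -0.55, standard error 0.16, adjusted p = 0.0468). The highest HF+SD mouse nearly reached the lowest CD mouse, and the call was lost when any mouse other than M7 was left out (adjusted p 0.0518 to 0.124). At 6 weeks Slc38a2 was at 210, 210, 295 and 249 CPM in CD mice and 222, 218, 175 and 177 CPM in HF+SD mice, with overlap (log2 fold change -0.28, adjusted p = 0.247).

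Slc38a4 (SNAT4), a system A carrier of liver and muscle, had the largest change of any transporter and the widest spread. At 6 weeks the values were 2.38, 25.8, 215 and 91.0 CPM in the CD mice and 4.88, 1.85, 1.77 and 2.95 CPM in the HF+SD mice (log2 fold change -4.86, standard error 1.12, adjusted p = 0.0170). The order of the CD mice was that of their muscle marker shares, and M22 lay among the HF+SD mice. With M22 as the only CD mouse the log2 fold change was 0.26 (adjusted p = 0.821), and in a fit with a muscle covariate it was -0.79 (adjusted p = 0.157). At 3 weeks, with little muscle RNA in any library, Slc38a4 was at 1.29, 0.649, 0.720 and 0.615 CPM in CD mice and 0.699, 0.486, 0.698 and 0.571 CPM in HF+SD mice and did not pass (log2 fold change -0.42, adjusted p = 0.373).

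Slc38a3 (SNAT3), the system N carrier of glutamine, histidine and asparagine known from liver and kidney, rose at both time points. After 3 weeks it was at 26.7, 57.3, 77.7 and 30.5 CPM in CD mice and 171, 156, 142 and 173 CPM in HF+SD mice. Every HF+SD mouse was well above every CD mouse, and the difference of 1.74 on the log2 scale (standard error 0.30, adjusted p = 0.00529) was the largest increase of a transporter at that time. The 6-week values were 65.5, 41.1, 93.3 and 72.6 CPM in CD mice and 79.5, 173, 155 and 151 CPM in HF+SD mice, with M5 of the HF+SD group inside the CD range (log2 fold change 1.04, standard error 0.29, adjusted p = 0.0346). The 6-week call was lost on scaling to thyrocyte genes (log2 fold change 0.53, adjusted p = 0.266) and in a fit with a muscle covariate (1.12, adjusted p = 0.107). It was also lost by limma (adjusted p = 0.0575), with M22 as the only CD mouse (1.09, adjusted p = 0.172) and without M43, M48, M18, M34 or M35 (adjusted p 0.0681 to 0.0925). The other system N gene, Slc38a5, was scarce (0.766 and 0.456 CPM on CD and HF+SD at 3 weeks), with a log2 fold change of -0.74 (adjusted p = 0.0646) at 3 weeks and -0.55 (adjusted p = 0.552) at 6 weeks.

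None of the 5 remaining SLC38 genes passed at either time, with log2 fold changes from -0.34 to 0.37 at 3 weeks and from -0.41 to 0.44 at 6 weeks. The most abundant, Slc38a10, was at 244 and 234 CPM on CD and HF+SD at 3 weeks and at 88.4 and 97.5 CPM at 6 weeks. Slc38a9, the lysosomal arginine sensor of the mTORC1 pathway, was at 30.8, 25.0, 28.4 and 25.9 CPM in CD mice and 17.6, 22.1, 20.8 and 22.6 CPM in HF+SD mice at 6 weeks. These did not overlap and just missed the threshold (log2 fold change -0.41, standard error 0.13, adjusted p = 0.0543), while at 3 weeks the diets overlapped (log2 fold change -0.048, adjusted p = 0.866). Slc38a6 (log2 fold change 0.21 at 3 weeks and -0.35 at 6 weeks), Slc38a7 (0.37 and 0.22) and Slc38a11 (-0.34 and 0.44) did not pass either.

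**Figure D3:**
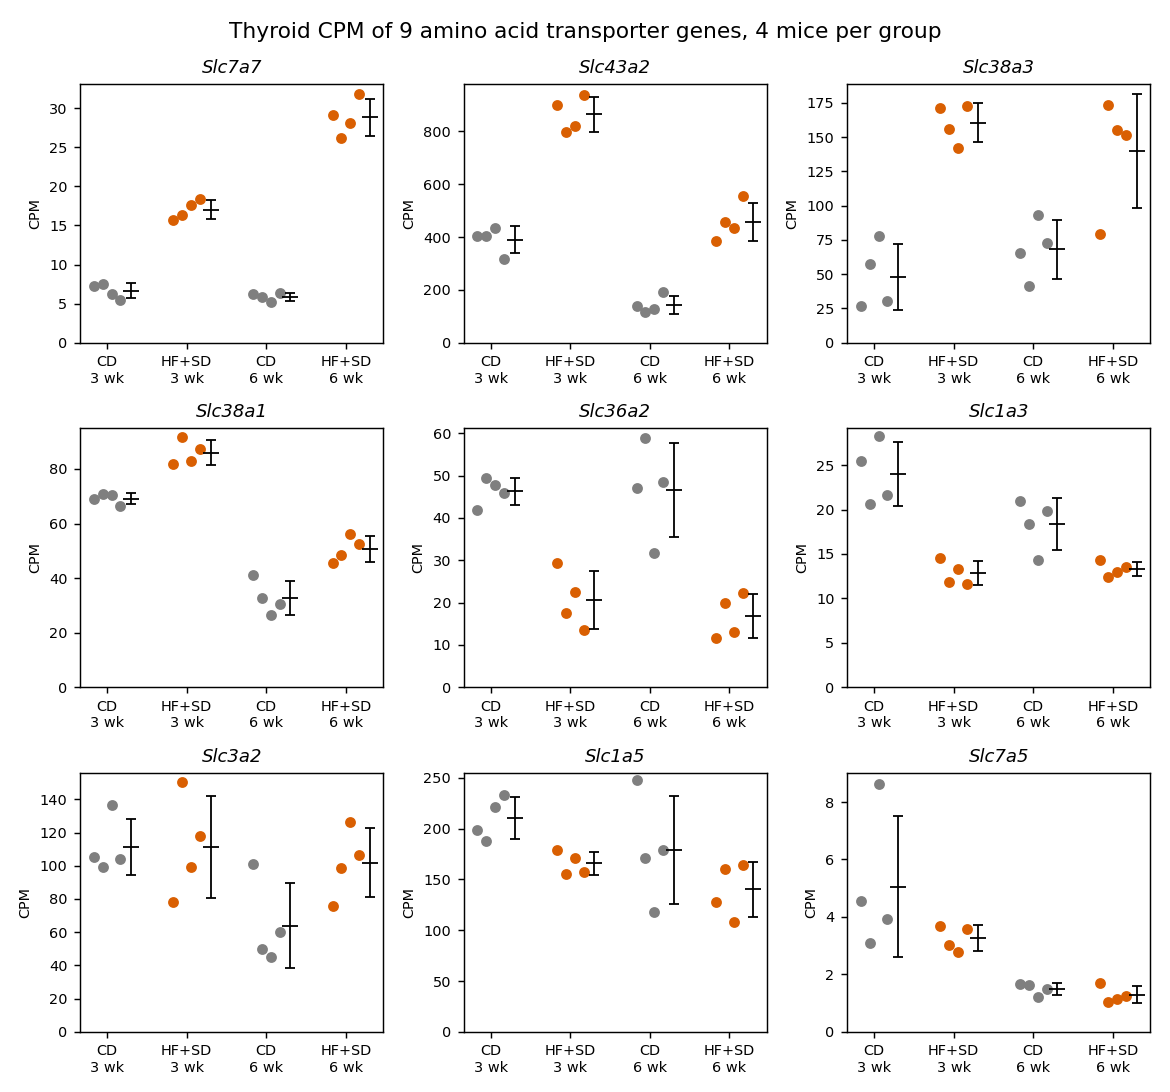
CPM (vertical axes, from 0) of 9 transporters in the 4 mice of each group at 3 and 6 weeks (CD grey, HF+SD orange), with bars for the mean ± SD (n = 4). The HF+SD mice lie above the CD mice of their time point for Slc7a7, Slc43a2 and Slc38a1 and below them for Slc36a2, and the diets overlap for Slc3a2 and Slc7a5.

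Among the SLC1 carriers Slc1a5 and Slc1a3 passed at 3 weeks, both lower in HF+SD mice, and neither passed at 6 weeks. Slc1a5 encodes ASCT2, a sodium-dependent exchanger of glutamine, and had the highest level of the 34 transporters per kilobase in CD mice at both times. At 3 weeks it was at 199, 188, 221 and 233 CPM in CD mice and 179, 155, 171 and 157 CPM in HF+SD mice, without overlap (log2 fold change -0.34, standard error 0.090, adjusted p = 0.0315). The call was lost without M96, M19y, M20y or M31 (adjusted p 0.0685 to 0.0935). It was also lost when libraries were scaled to thyrocyte genes and in 1 fit of 16 libraries (adjusted p up to 0.300). After 6 weeks it was at 248, 171, 118 and 179 CPM in CD mice and 128, 161, 108 and 164 CPM in HF+SD mice, with overlap (log2 fold change -0.35, adjusted p = 0.313). The 6-week difference was close in size to that at 3 weeks. It passed when libraries were scaled to thyrocyte genes (log2 fold change -0.77, adjusted p = 0.0400), a scaling that moved the median of all genes to -0.49. Slc1a4 (ASCT1), a carrier of serine, alanine and cysteine, was at 1.41, 1.83, 8.69 and 3.20 CPM in CD mice and 3.50, 2.00, 2.17 and 2.62 CPM in HF+SD mice at 3 weeks, and did not pass (log2 fold change -0.56, adjusted p = 0.495). Its direction rested on M55, without which the log2 fold change was 0.26 (adjusted p = 0.603). At 6 weeks Slc1a4 was at 1.38, 1.55, 1.66 and 1.71 CPM in CD mice and 2.56, 1.66, 1.43 and 1.77 CPM in HF+SD mice (log2 fold change 0.24, adjusted p = 0.478).

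Slc1a3 (GLAST), a carrier of glutamate and aspartate, fell at 3 weeks. It was at 25.5, 20.6, 28.3 and 21.6 CPM in CD mice and 14.5, 11.8, 13.3 and 11.6 CPM in HF+SD mice, a gap with no mouse in it (log2 fold change -0.91, standard error 0.12, adjusted p = 0.00164). At 6 weeks the values were 20.9, 18.4, 14.3 and 19.8 CPM in CD mice and 14.3, 12.4, 12.9 and 13.5 CPM in HF+SD mice, where CD mouse M45 touched the HF+SD range and the test just missed the threshold (log2 fold change -0.47, standard error 0.15, adjusted p = 0.0538). The 6-week difference passed in DESeq2 (adjusted p = 0.0151), with its size factors in edgeR, by limma, in 1 fit of 16 libraries, when scaled to thyrocyte genes (log2 fold change -0.93, adjusted p = 0.0163) and without M45 (-0.58, adjusted p = 0.0234). Slc1a1, the glutamate carrier of neurons and epithelia, did not pass (log2 fold change -0.41 at 3 weeks and -0.12 at 6 weeks).

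Of the cationic carriers, which bring in arginine, lysine and ornithine, Slc7a2 changed most. Slc7a2 (CAT2) was at 17.9, 16.2, 37.4 and 28.1 CPM in CD mice and 7.01, 4.89, 4.68 and 4.43 CPM in HF+SD mice at 6 weeks, and all CD mice were higher (log2 fold change -2.24, standard error 0.30, adjusted p = 0.00134). The 2 highest CD mice, M45 and M48, were those richest in muscle RNA, but M22, with little of it, was also above every HF+SD mouse. With M22 as the only CD mouse the log2 fold change was -1.77 (adjusted p = 0.0186), and in a fit with a muscle covariate it was also -1.77 (adjusted p = 0.00279). C cell, adipocyte and parathyroid marker sums were lower in HF+SD mice at 6 weeks too, with M22 above every HF+SD mouse in each. The part of these cells in the decrease of Slc7a2 was not tested. At 3 weeks Slc7a2 was at 7.18, 1.41, 4.50 and 5.06 CPM in CD mice and 2.77, 1.46, 3.88 and 5.88 CPM in HF+SD mice (log2 fold change -0.37, adjusted p = 0.638). Slc7a4, an orphan relative for which no transport is established, was at 28.5, 28.9, 21.7 and 22.5 CPM in CD mice and 32.6, 37.3, 36.3 and 35.5 CPM in HF+SD mice at 3 weeks, higher in each HF+SD mouse (log2 fold change 0.48, standard error 0.11, adjusted p = 0.0187). That call was lost without M19y, M20y or M31 (adjusted p 0.0526 to 0.0602). The 6-week values were 25.4, 13.4, 12.2 and 15.0 CPM in CD mice and 13.0, 18.4, 17.6 and 22.3 CPM in HF+SD mice (log2 fold change 0.11, adjusted p = 0.796), and the sign there turned on scaling to thyrocyte genes. Slc7a1 (CAT1), the general arginine carrier, had log2 fold changes of -0.46 at 3 weeks and 0.36 at 6 weeks (adjusted p = 0.320 and 0.323), and Slc7a3 and the lysosomal Slc7a14 did not pass.

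Slc36a2 (PAT2), a proton-coupled carrier of glycine, alanine and proline, fell at both times. After 3 weeks it was at 42.0, 49.5, 47.7 and 45.9 CPM in CD mice and 29.3, 17.5, 22.5 and 13.5 CPM in HF+SD mice (log2 fold change -1.16, standard error 0.20, adjusted p = 0.00528). After 6 weeks it was at 47.1, 58.9, 31.8 and 48.5 CPM in CD mice and 11.7, 20, 13.1 and 22.3 CPM in HF+SD mice (log2 fold change -1.47, standard error 0.26, adjusted p = 0.00492). The diets did not overlap at either time, and with M22 as the only CD mouse at 6 weeks the log2 fold change was -1.50 (adjusted p = 0.0440). Slc36a2 is known as a surface marker of brown adipocytes. The 5 brown adipocyte markers summed to 147 to 312 CPM in CD mice and 23.5 to 105 in HF+SD mice at 3 weeks, where 4 of 5 fell, and to 620 to 924 and 40.6 to 119 at 6 weeks, where 4 of the 4 tested fell. At each time 1 of the 5 was at 0 in some library, and the part of these cells in the decrease was not tested. The other proton-coupled genes, Slc36a1 (PAT1, of lysosomes and the surface) and Slc36a4, had log2 fold changes of -0.19 and 0.0081 at 3 weeks and 0.30 and 0.47 at 6 weeks, and did not pass.

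**Figure D4:**
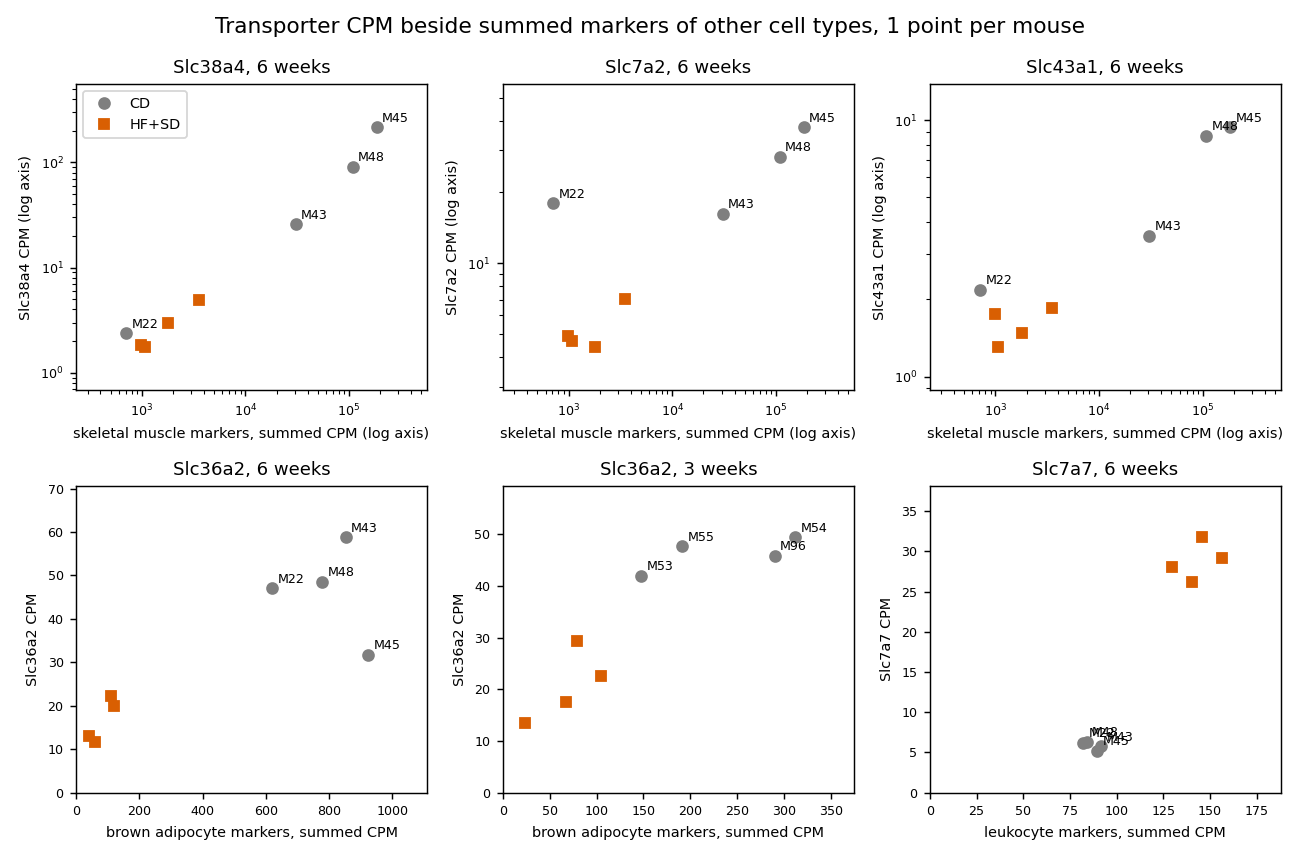
Transporter CPM (vertical axes) against the summed CPM of skeletal muscle, brown adipocyte or leukocyte markers (horizontal axes), with 1 point per mouse (CD grey circles with mouse names, HF+SD orange squares) and log axes in the muscle panels. CD mouse M22 lies with the HF+SD mice for Slc38a4 (2.38 CPM) and apart from them for Slc7a2 (17.9 CPM), and the diets form separate groups for Slc36a2 and Slc7a7.

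Across families, the summed SLC43 level per kilobase took 20.2% ± 1.47 of the level of all 34 transporters in CD mice and 33.3% ± 1.58 in HF+SD mice at 3 weeks (SD, n = 4 each), and 14.1% ± 1.74 and 30.5% ± 1.08 at 6 weeks. The system N share was 3.49% ± 1.43 and 9.83% ± 0.663 at 3 weeks and 6.05% ± 1.47 and 10.4% ± 2.64 at 6 weeks. The neutral SLC1 share was 19.4% ± 2.03 and 13.0% ± 0.977 at 3 weeks, and 20.1% ± 5.45 and 13.4% ± 1.72 at 6 weeks. The proton-coupled share was 8.96% ± 0.288 and 4.84% ± 0.758 at 3 weeks, and 9.89% ± 2.85 and 5.41% ± 0.389 at 6 weeks. The diets did not overlap in these 4 shares at 3 weeks. They did not overlap either in the shares of system A, acidic SLC1 and other SLC38 carriers, each lower in HF+SD mice at 3 weeks. At 6 weeks the SLC43, proton-coupled, light chain and cationic shares did not overlap. The light chain share was 3.46% to 4.45% in CD mice and 5.21% to 7.37% in HF+SD mice, and its level 7.72 to 9.04 and 13.7 to 16.9 CPM per kilobase. The cationic share was 3.74% to 4.75% and 2.80% to 3.06%, while its level overlapped (6.874 to 11.1 and 6.873 to 8.36 CPM per kilobase). The system N share (4.59% to 8.00% in CD mice and 6.66% to 12.3% in HF+SD mice) and the neutral SLC1 share (12.9% to 25.6% and 10.9% to 14.6%) overlapped at 6 weeks. The heavy chain share overlapped at both times. By count, 1 of 5 tested light chains passed at each time (higher), 2 of 3 system A genes (1 higher and 1 lower at each time) and 1 of 2 system N genes (higher). Of SLC43 genes 2 of 3 passed at 3 weeks and 3 of 3 at 6 weeks, of proton-coupled genes 1 of 3 (lower), and of cationic genes 1 of 5 (higher at 3 weeks and lower at 6). Acidic and neutral SLC1 genes each had 1 of 2 passing at 3 weeks (lower) and 0 at 6 weeks. Heavy chains had 0 of 2 and other SLC38 genes 0 of 5 at both times. Of all genes 14.9% passed at 3 weeks and 21.5% at 6 weeks, and families of 2 to 5 tested genes are too small to compare with these shares.

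No transporter passed the test of whether the diet effect differed between 6 and 3 weeks, in a fit of all 16 libraries by edgeR. Of the 33 transporters tested in it, 4 had an unadjusted p under 0.05 and 0 an adjusted p under 0.05, where 22.3% and 0.0792% of all 18929 genes did. The 4, which DESeq2 passed as well, were Slc7a7 (log2 fold change larger by 0.87 at 6 weeks, standard error 0.17, adjusted p = 0.0512), Slc38a4 (difference -4.52, adjusted p = 0.0696), Slc43a3 (0.73, adjusted p = 0.0777) and Slc7a2 (-1.94, adjusted p = 0.0934). Without CD mouse M22, 6 transporters passed in edgeR, Slc7a7, Slc43a3, Slc38a1 and Slc3a2 with a higher and Slc7a2 and Slc38a4 with a lower log2 fold change at 6 weeks. Of all 19297 genes in that fit 2715 passed, and the 6-week CD mice left in it were those rich in muscle RNA. In a fit of all 16 libraries with a muscle covariate, 0 transporters passed and 2 had an unadjusted p under 0.05, where 1 of all 18929 genes passed. Without M43 both Slc7a7 and Slc38a4 passed, and without M96 Slc7a7 passed. The transporters that passed at only 1 time point are therefore not shown to differ between the time points.

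Genes that work beside the transporters were followed in lists drawn up by function. Of 18 targets of ATF4, the transcription factor of the amino acid response, none of them transporters, 1 rose and 4 fell at 6 weeks (median log2 fold change -0.17; of all genes 12.0% rose and 9.55% fell) and 1 rose and 3 fell at 3 weeks (median -0.36; of all genes 9.07% rose and 5.78% fell). Ddit4, an inhibitor of mTORC1, rose from 16.2 ± 3.22 to 49.8 ± 9.27 CPM (SD, n = 4) at 6 weeks (adjusted p = 0.00072) and was at 55.9 ± 30.8 and 58.3 ± 4.24 CPM at 3 weeks (adjusted p = 0.917). The genes for cystathionine gamma-lyase (Cth, log2 fold change -1.77, adjusted p = 0.0102), phosphoserine phosphatase (Psph, -0.94, adjusted p = 0.0130) and the glutathione-degrading Chac1 (-4.58, adjusted p = 0.0177) fell at 6 weeks. At 3 weeks these did not pass, with -0.38 for Cth, -0.19 for Psph and -1.59 for Chac1. Chac1 was at 15.3 ± 15.4 CPM in the 6-week CD mice, the group with 3 mice rich in muscle RNA, and at 0.636 ± 0.247 CPM in the HF+SD mice. In a fit with a muscle covariate, where 2078 of 18249 genes passed, 1 of the 18 targets rose and 0 fell at 6 weeks. The falls of Cth, Psph and Chac1 did not pass in that fit. Of 20 cytosolic aminoacyl-tRNA synthetases, which load amino acids onto tRNA, 0 rose and 2 fell at 6 weeks, Lars (-0.48, adjusted p = 0.0369) and Kars (-0.71, adjusted p = 0.0487). Wars and Vars, next in order, had 0.39 and -0.58 and did not pass. At 3 weeks 1 synthetase fell. In the fit with a muscle covariate, 0 synthetases rose and 0 fell at 6 weeks. The 2 of 20 synthetases passing at 6 weeks are a smaller share than the 21.5% of all genes.

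Of amino acid carriers outside the 6 families, 2 of 9 plasma membrane genes rose and 3 fell at 6 weeks, and 1 of 8 rose and 3 fell at 3 weeks, where 21.5% of all genes passed at 6 weeks and 14.9% at 3 weeks. Slc6a6, the taurine carrier, rose from 39.6 ± 13.4 to 107 ± 30.5 CPM at 6 weeks (log2 fold change 1.44, adjusted p = 0.0114) and from 50.6 ± 1.77 to 105 ± 15.5 CPM at 3 weeks (1.06, adjusted p = 0.000386). The proline carrier Slc6a20a fell (-2.29, adjusted p = 0.00341 at 6 weeks, and -1.42, adjusted p = 0.00699 at 3 weeks), and the scarce Slc6a7 rose (1.16, adjusted p = 0.0382 at 6 weeks). Slc6a17 also fell at both times (-0.83, adjusted p = 0.0444 at 6 weeks, and -0.50, adjusted p = 0.0214 at 3 weeks). Slc6a9 fell at 3 weeks (-1.21, adjusted p = 0.000598) and did not pass at 6 weeks (-0.68, adjusted p = 0.0974). None of 3 lysosomal genes (Pqlc2, Ctns and Mfsd12) passed at either time. Of 7 mitochondrial carriers, 1 rose and 2 fell at 6 weeks and 2 rose at 3 weeks. Slc25a29, a carrier of basic amino acids, rose (1.36, adjusted p = 0.0174), Slc25a44, which takes in branched-chain amino acids, fell (-0.47, adjusted p = 0.0346), and the aspartate and glutamate carrier Slc25a12, abundant in muscle, fell from 206 ± 166 to 48.1 ± 5.32 CPM at 6 weeks (-2.10, adjusted p = 0.0386) and rose by 0.39 at 3 weeks (adjusted p = 0.00444). Slc25a13, its liver counterpart, had 0.61 at 6 weeks and did not pass (adjusted p = 0.128). In a fit with a muscle covariate, 0 of the 9 plasma membrane genes rose and 3 fell at 6 weeks. Of the 7 mitochondrial carriers 1 rose and 0 fell in that fit. There the 6-week rises of Slc6a6 and Slc6a7 and the falls of Slc25a44 and Slc25a12 did not pass.

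One CD mouse at 3 weeks stood apart in several transporters, an observation made after the values were seen. M55 had 4.05 times the mean of the other 3 CD mice for Slc1a4, 2.84 times for Slc7a3, 2.47 times for Slc7a1 (118 CPM against 41.3 to 55.7), 2.24 times for Slc7a5, 2.04 times for Slc38a3 and 1.80 times for Slc7a6. For Slc38a6 it had 0.47 times that mean. It was the highest of the 4 CD mice in 16 of the 32 tested transporters, against 4 to 6 for the others. The same count reached 18 for M22 in the 6-week CD group. The ATF4 targets summed to 728 CPM in M55 and 438 to 541 CPM in the other CD mice at 3 weeks, and the synthetases to 1916 CPM against 1247 to 1256. Without M55 the number of transporters passing at 3 weeks was 8 in place of 10, with Slc43a1 and Slc38a2 lost.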

How the data were processed

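Poly(A) RNA of whole thyroid was sequenced as 150 bp read pairs, 1 library per mouse. The authors deposited raw counts of reads per gene for 21640 genes and 16 libraries, with no normalization. They also deposited a signal, in which each library's counts are divided by its size factor, used here only for limma 3.58.1 on log2(value + 1), an alternative. The submitters' processing notes name Trim Galore 0.6.7, STAR, DESeq2 1.36.0, R 4.1.0 and the build mm39. No counter or strand setting was given in the sources used here, and reads of overlapping genes cannot be told apart. Names and exon lengths came from GENCODE M21 (20841 identifiers matched, 799 did not). Promoter windows came from RefSeq (GRCm38.p6), another build than that of the counts, and no protein sequences were used.

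The comparison of diets at each time point used edgeR 4.0.16 and R 4.3.3 (TMM factors, filterByExpr by group, glmQLFit, glmQLFTest, Benjamini-Hochberg adjustment over all genes tested). The standard error is the absolute log2 fold change divided by the square root of F. The difference between time points was the interaction over all 16 libraries. For single genes, log2 CPM (prior count 2) was permuted exactly between diets, two-sided. Scripts were tested on simulated data. Counts of 2 mice of a group differed by a chi-square of 16.8 to 994 per gene, over genes with at least 50 counts, far over sampling noise. The labels give 1 mouse per library and its diet, and the tests set the diet difference against the spread between libraries of a group. Mice shared cages by the study's account, and the labels give no cage, so the parts of mouse and cage in that spread cannot be told apart.

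Values in every mouse are given for the heavy chains, for Slc7a5, Slc7a8, Slc7a11, Slc1a4, Slc1a5, Slc38a1, Slc38a2, Slc38a3 and Slc43a1, and for genes that passed at either time, and of each further list the 4 genes with the lowest adjusted p at 6 weeks are named. The values of Slc38a9 by mouse, the other list genes, the M55 comparison and the promoters printed were chosen after values were seen. The transporters and lists were chosen with earlier results of these data known. Alternatives were DESeq2 1.42.0, its size factors in edgeR, scaling to 8 thyrocyte genes, no filter beyond 1 count, at least 10 counts in every library, 1 fit of 16 libraries, a muscle score as a covariate, limma, a log2 fold change above 1, each mouse left out in turn, and, added after seeing the data, M22 as the only CD mouse.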

Additional observations from a re-analysis of the deposited data

Results flagged for a closer look

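In 4 of the 128 groups of 4 mice examined, 1 mouse lay so far from the rest that its gap to them, over the group's range, passed Dixon's 95% limit, which chance passes in about 1 group in 20. All 4 were CD groups at 3 weeks. M55 was high for Slc36a1, at 58.7 CPM against 34.1 to 37.9 in the other mice, and high for Slc3a2, at 136 CPM against 99.5 to 106. M55 was low for Slc38a9, at 8.90 CPM against 14.4 to 15.3. M53 was high for Slc38a4, at 1.29 CPM against 0.615 to 0.720.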

How the results depend on the processing

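At 6 weeks 9 transporters passed, 5 with the muscle score as a covariate and 4 with M22 as the only CD mouse, a fit added after seeing the data that assumes 1 mouse varies like the others. The other alternatives gave 8 to 11, and leaving out each mouse in turn 5 to 12. Slc7a7, Slc43a2, Slc7a2 and Slc36a2 passed in all of these. At 3 weeks 10 passed, 6 when scaled to thyrocyte genes, 5 in 1 fit of 16 libraries and 5 with a log2 fold change above 1, while the other alternatives gave 8 to 11 and leaving out each mouse 6 to 11. For the difference between time points, 0 passed in edgeR, 4 by DESeq2, 1 with DESeq2 size factors and 1 with at least 10 counts in every library, and 0 to 6 with each mouse left out. With the muscle score as a covariate 0 passed, and 0 when scaled to thyrocyte genes. Signs turned for these genes, and the cause was not tested. At 6 weeks, scaling to thyrocyte genes gave -0.28 for Slc1a4 and -0.28 for Slc7a4, the muscle covariate gave -0.31 for Slc7a4, and M22 alone gave -0.52 for Slc7a4 and 0.26 for Slc38a4. At 3 weeks Slc3a2 had -0.0070 by DESeq2 and with its size factors, -0.0058 scaled to thyrocyte genes, -0.0022 with no filter, -0.00058 in 1 fit of 16 libraries and -0.054 by limma. Slc3a1 had -0.21 with the muscle covariate and -0.063 by limma, and Slc7a8 had 0.0044 with at least 10 counts. With each mouse left out, 3-week values ran from -0.18 to 0.14 for Slc3a2, -0.25 to 0.35 for Slc3a1, -0.12 to 0.12 for Slc7a8 and -0.83 to 0.26 for Slc1a4, and 6-week values ran from -0.024 to 0.40 for Slc7a4 and from -0.28 to 0.0061 for Slc7a8. Of the single-gene values under alternatives, 497 kept direction and side of the threshold, 58 lost the call, 8 gained one and 30 turned sign. No paired analysis was possible because the labels give the groups no shared replicate numbers. Slc7a11 and Slc1a2 were too scarce to test within a time point under the main filter, and at under 1 CPM, as for Slc3a1, only large differences could be seen.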
